A study of Canis lupus familiaris with 21 samples.

Results

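The transcript levels of MDCK-II lines that overexpressed Snail1 or Zeb1 were compared with those of lines that overexpressed E47, Snail2, Twist1 or Twist2. MDCK-II is a line of dog kidney epithelial cells. Each of 21 two-colour Agilent canine arrays carried, by the channel labels, RNA of 1 overexpressing line in Cy5 and RNA of MDCK-II control cells with a pLKO empty vector in Cy3. The comparison used 18 of the 21 samples, 3 per line: 6 samples of Snail1 and Zeb1 against 12 of the other 4 lines, with every line weighted equally. The remaining 3 samples, of Zeb2, served as a side reference only. Cells were selected with G418 or puromycin and single clones were picked with rings. The labels call the 3 samples of a line biological replicates and do not say whether each was grown from a clone of its own. The p-values therefore cover only the spread among these samples, part of which may be technical. The extraction protocol in the labels speaks instead of tumours and of a pooled Cy3 reference, and the word control follows the source label of the Cy3 channel. The lines were grouped in this way with earlier results of these data known.

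All 7 factors are transcription factors known as drivers of the epithelial to mesenchymal transition (EMT), a change of state that takes away junctions and apical-basal polarity and makes cells motile. Snail1, Snail2, Zeb1 and Zeb2 are zinc-finger proteins that bind E-box sequences and are known as direct repressors of epithelial genes such as the E-cadherin gene. E47, Twist1 and Twist2 belong to the basic helix-loop-helix family, whose members bind E-boxes as dimers. Snail2 is the close relative of Snail1, and Zeb2 that of Zeb1, so the split examined here runs across protein families. The study's title sets Zeb1 and Snail1 together, in the regulation of the miR-200 family, small RNAs known to repress the Zeb factors in turn.

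Measurements are given per array spot, with no gene names. In 21 of 21 scanner files the grid that supplied the probe identifiers belonged to another array design than the slide. Among 454 pairs of tested spots listed under a common transcript name, the mean brightness of the 2 spots correlated with r = -0.066 across pairs, which are not independent replicates. The overexpressed genes, epithelial or mesenchymal markers and the labelled cell type could therefore not be checked, and spots are called by the identifier and grid position in the files. Of 42034 spots, 30183 were tested, namely those which the scanner software had marked as well above background, in Cy5 or Cy3, in 3 or more of the 21 scanner files.

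The column labels and the file labels of the deposit conflict. The ratios came from the deposited value table, whose columns are named by sample, and are written as log2 of line over control. Of its 21 columns, 15 equalled the ratios of a scanner file within 1e-04 (log10) at 97.7% to 97.8% of the tested spots, and in 0 of these 15 cases was the file recorded for the sample that the column names. In 6 it was recorded for another sample of the same line and in 9 for another line. The first and second Twist1 columns equalled files recorded for E47, and the third a file recorded for Twist2. The first and second E47 columns equalled files recorded for Twist1, and the third a file recorded for Snail2. The first Snail2 column equalled a file recorded for E47. The first Zeb1 column equalled a file recorded for Zeb2. Line names below are those of the columns, and statements on any single line hold for the column labels only. The other 6 columns, which include all 3 of Snail1 and the third of Twist2, equalled no file. Their scale and direction were taken to be those of the rest. The file nearest to each Snail1 column was one recorded for Zeb2, with r = 0.72, 0.73 and 0.67 over tested spots. The third Twist2 column was nearest to a file recorded for Twist1 (r = 0.97). Of the 18 columns compared, 14 equalled a file, 11 in the 4 lines and 3 in Zeb1, and for 13 of these 14 the file was recorded for a line of the same side of the comparison. The files that equal columns also give the slides. The 11 columns of the 4 lines lay on 3 slides, the 3 Zeb1 columns on another, and 0 slides held both sides. Zeb1 and its slide can thus not be told apart, and the slide of the Snail1 columns is not known here.

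Fewer spots lay far from control in the Snail1 and Zeb1 columns than in the columns of the other 4 lines. The share of tested spots that differed at least 2-fold from control was 15.1%, 15.6% and 14.1% in the 3 Snail1 columns and 14.7%, 18.4% and 14.2% in the 3 Zeb1 columns. In the 12 columns of E47, Snail2, Twist1 and Twist2 it ran from 41.4% in the first Twist1 column to 53.0% in the first E47 column, so that the sides did not overlap. The plot of these shares by column shows the gap. The standard deviation of log2 ratios over spots was 0.929 ± 0.0013 (SD, n = 3 columns) for Snail1 and 0.828 ± 0.043 for Zeb1, whereas E47 had 1.62 ± 0.058, Snail2 1.58 ± 0.082, Twist1 1.43 ± 0.037 and Twist2 1.64 ± 0.095. Taken over line means, it averaged 0.805 for Snail1 and Zeb1 and 1.51 for the other 4 lines, a difference of -0.71. With the line as the unit there are 15 ways to split 6 lines into 2 and 4, and the exact two-sided permutation p was 0.0667, the smallest this design allows, so the difference could not reach 0.05. The centre of the Snail1 and Zeb1 ratios was narrower as well. The interquartile range was 0.705 to 0.745 for Snail1 columns and 0.742 to 0.978 for Zeb1 columns, and 1.52 to 2.15 for columns of the other 4 lines.

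**Figure D1:**
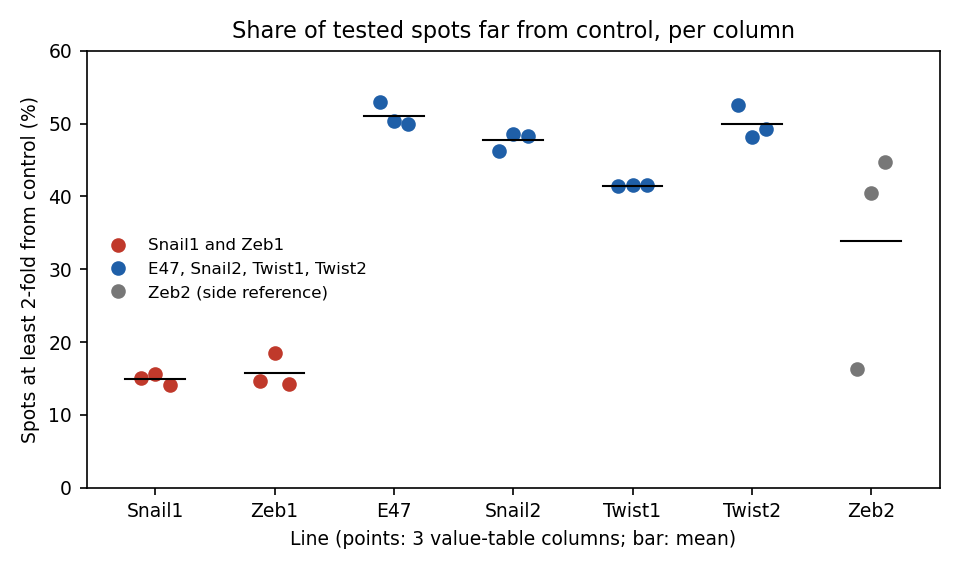
Share of the 30183 tested spots (vertical axis, %) whose ratio to control was at least 2-fold in either direction, for each value-table column (points) and each line (horizontal axis; bars are means of 3 columns). The 6 Snail1 and Zeb1 columns lie between 14.1% and 18.4%, below all 12 columns of E47, Snail2, Twist1 and Twist2, while the first Zeb2 column (16.4%) lies apart from the other two.

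Which spots separate the sides was asked with 1 limma fit over the 18 columns, as the mean of Snail1 and Zeb1 minus the mean of the other 4 lines. The channel labels give all ratios the same control RNA, which would then cancel in such a difference. Differences in Cy3 signal between arrays, described below, stay in it. Called spots had an adjusted p (Benjamini-Hochberg, over all tested spots) under 0.05 and differed by at least 1 on the log2 scale. Of the 30183 spots, 12438 (41.2%) were called, 6418 (21.3%) higher and 6020 (19.9%) lower in Snail1 and Zeb1. The median absolute difference over all tested spots was 0.81, against a median standard error of 0.19, and over called spots it was 1.59. Differences of 4-fold or more were called at 3640 spots (12.1%) and of 8-fold or more at 805. In 6733 called spots, that is 3550 higher and 3183 lower, the 6 columns did not overlap the 12. This was 54.1% of called spots, and over all tested spots 25% had columns that did not overlap. With the 6 line means as samples instead of 18 columns, limma called 9956 spots, 5464 higher and 4492 lower, and 9948 of them had a call of 1 sign in both fits.

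The contrast was not carried by 1 line on either side. The count was 13004 with Zeb1 as the only line of its side and 12064 with Snail1 as the only one, and it ran from 11934 to 13597 when each of the other 4 lines was left out. Between single lines, the 8 pairs across the sides had 9842 to 14757 called spots (32.6% to 48.9%), with a median of 13361. Snail1 differed from E47 at 13923 spots (46.1%), from Twist2 at 13273 (44%), from Snail2 at 12167 (40.3%) and from Twist1 at 9842 (32.6%). Zeb1 gave the same order, with 14757 (48.9%), 13741 (45.5%), 13449 (44.6%) and 10561 (35%). By the column labels, Twist1 was thus the line of its side with the fewest calls against Snail1 and against Zeb1. Twist1 also had the smallest spread of ratios of these 4 lines (SD 1.43), and its first column lay apart from its others. The part of either in these counts was not tested. No Twist1 column equalled a file recorded for Twist1. Snail2, the relative of Snail1, differed from Snail1 at more spots than Twist1 did.

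Within a side the counts were lower. Snail1 and Zeb1 differed at 1321 spots (4.38%), fewer than any pair among the other 4 lines. E47 and Twist1 differed at 7459 (24.7%), Snail2 and Twist1 at 4725 (15.7%), Twist1 and Twist2 at 3885 (12.9%), E47 and Snail2 at 2909 (9.64%), E47 and Twist2 at 2196 (7.28%) and Snail2 and Twist2 at 1701 (5.64%). The grid of pairwise counts shows both blocks. The low count between Snail1 and Zeb1 depends on the small size of their ratios. After every column was scaled to an equal median absolute ratio, Snail1 and Zeb1 differed at 5422 spots and the pairs among the other 4 lines at a median of 632.5. The order within sides thus turned round, while 11127 spots were called between the sides, not all of them the same spots. Quantile normalisation gave 4827 and 1042.5 for the within-side counts and 11430 for the contrast. Of the 12438 contrast calls, 8332 kept call and sign after scaling, and 142 were called with the opposite sign. Scaling moved the median difference over all spots from 0.05 to 0.11.

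**Figure D2:**
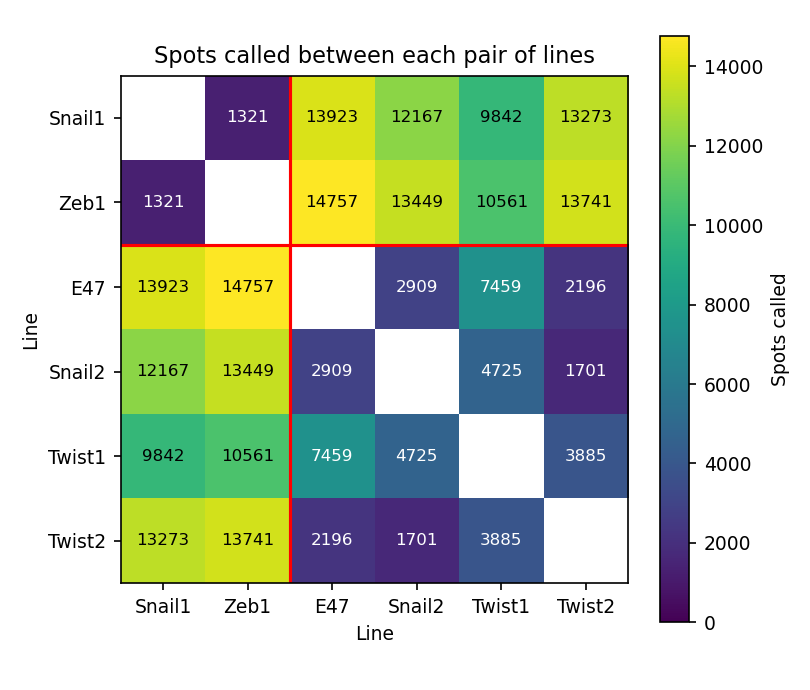
Number of spots called (limma, adjusted p under 0.05 and absolute log2 difference of at least 1) between each pair of the 6 lines, with the line on both axes and the count printed and coloured in each cell. Red lines divide Snail1 and Zeb1 from the other 4 lines: cells across the sides hold 9842 to 14757 spots, and cells within a side 1321 to 7459.

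Distances between single columns, taken without a test, showed part of the same arrangement. They were not scaled for the spread of ratios, which was smaller in the Snail1 and Zeb1 columns. The root mean square difference of log2 ratios over spots was 0.523 to 0.589 between Snail1 columns, 0.588 to 0.686 between Zeb1 columns and 0.788 to 0.985 for the 9 pairs of a Snail1 with a Zeb1 column. All 72 pairs of columns from opposite sides lay further apart, from 1.20 to 1.84. The 54 pairs of columns from different lines among E47, Snail2, Twist1 and Twist2 ran from 0.785 to 1.37, which overlaps the distances across the sides. The first Zeb2 column, outside both sides, lay 0.815 to 0.880 from the Snail1 columns. The columns named Twist1 were the least uniform of these 4 lines, with 0.608 between the second and the third column and 1.08 to 1.09 between either of them and the first.

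In all 8 pairs across the sides, 4626 spots were called with 1 sign (15.3% of tested), 2570 higher and 2056 lower in Snail1 and Zeb1. Twist1 limited this number: 5953 contrast calls failed in at least 1 of its 2 pairs, against 3402 for Snail2, 2748 for E47 and 2608 for Twist2. Without Twist1, 7149 spots were called in the 6 pairs that remain. Snail1 was called against all of the 4 lines at 5919 contrast calls and Zeb1 at 6582. Among the 12438 contrast calls Snail1 and Zeb1 differed from each other at 609 (4.9%), near the 4.38% of all tested spots.

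At most called spots the 4 lines were, by their mean, at least 2-fold from control and Snail1 and Zeb1 were less than 2-fold from it. Among the 12438 called spots, the mean of the 4 lines was at least 2-fold from control and that of Snail1 and Zeb1 was not at 9188 (73.9%). The converse held at 510 (4.1%), both means were at least 2-fold from control at 852 (6.85%) and neither was at 1888 (15.2%). Over all tested spots the first 2 shares were 37.2% and 2.96%. By the channel labels, all 6 lines are measured against the same control. A deviation of that control RNA would then move both means together, and these levels are a description. At the 6418 spots called higher, the median log2 ratio was 0.01 in Snail1 and 0.16 in Zeb1, and -1.76 in E47, -1.70 in Snail2, -1.31 in Twist1 and -1.83 in Twist2. At the 6020 called lower it was -0.07 in Snail1 and -0.15 in Zeb1, and 1.78, 1.57, 1.09 and 1.67 in the other 4 in that order. The medians by column show that each column of the 4 lines departed from control in the same direction. The medians of the Snail1 and Zeb1 columns stayed between -0.26 and 0.25. Single spots lay on both sides of these medians. At spots called higher, the lower and upper quartiles were -0.24 and 0.27 in Snail1 and -0.28 and 0.49 in Zeb1. At spots called lower they were -0.47 and 0.32 in Snail1 and -0.58 and 0.23 in Zeb1.

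**Figure D3:**
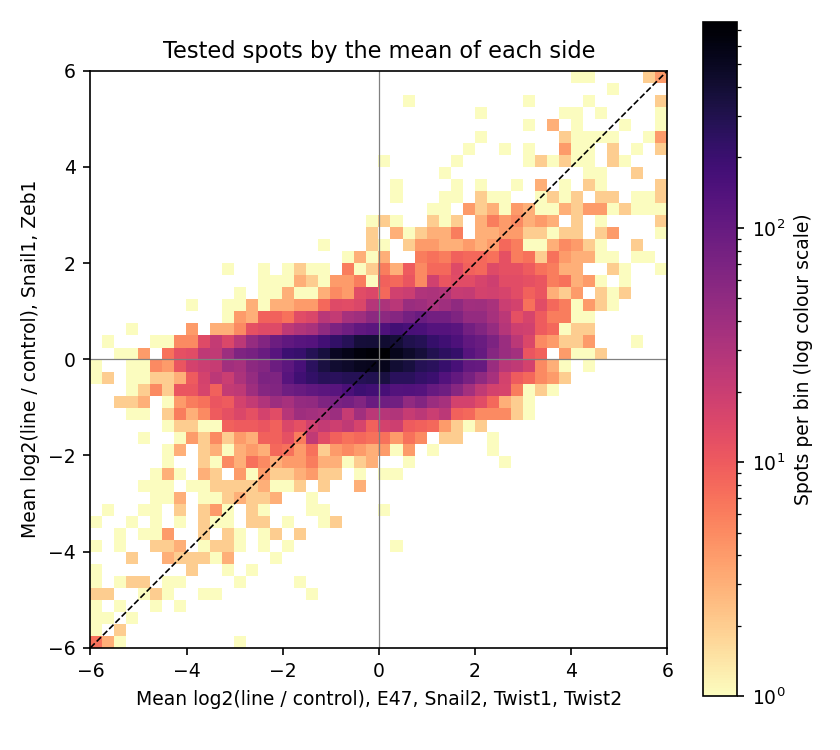
Tested spots binned by the mean log2 ratio to control of E47, Snail2, Twist1 and Twist2 (horizontal axis) and of Snail1 and Zeb1 (vertical axis), bins of 0.25, with the number of spots on a log colour scale, values beyond the axes in the outer bins and equal means on the dashed line. The cloud is stretched along the horizontal axis: 44.1% of spots are at least 2-fold from control on the horizontal axis and 9.81% on the vertical axis.

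**Figure D4:**
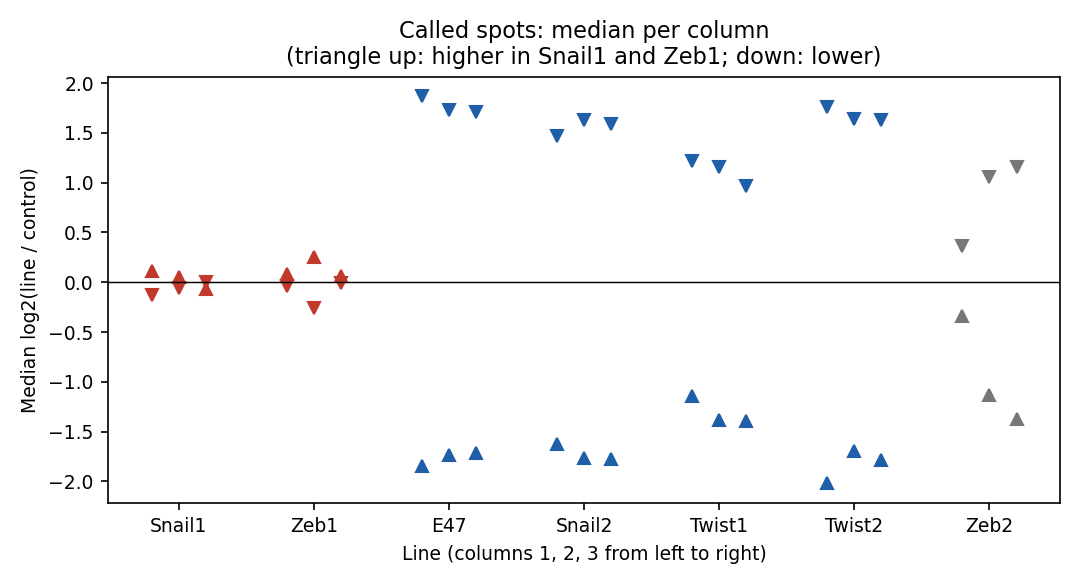
Median log2 ratio to control (vertical axis) in each of the 21 columns, grouped by line (horizontal axis), over the 6418 spots called higher (triangles pointing up) and the 6020 called lower (pointing down) in Snail1 and Zeb1. The medians of Snail1 and Zeb1 stay near 0, and those of the other 4 lines lie at -2.02 to -1.14 for the first set and 0.97 to 1.87 for the second.

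Under a stricter sorting by single lines, 2878 called spots (23.1%) had each of the 4 lines at least 2-fold from control in 1 direction with Snail1 and Zeb1 both within 0.5 (log2) of control, 1743 of them lowered and 1135 raised in the 4 lines. At another 3612 spots (29%) both sides lay on the same side of control with the 4 lines further out. Opposite movement was less common: at 429 spots (3.45%) Snail1 and Zeb1 were both at least 0.5 from control one way and each of the 4 lines at least 0.5 the other way. At 245 spots (1.97%) both sides lay on the same side with Snail1 and Zeb1 further out. The converse of the first rule, with Snail1 and Zeb1 both at least 2-fold from control and each of the 4 lines within 0.5, was met at 23 spots (0.185%). These rules are not equally hard to meet. The first needs 2 lines of small spread near control, and the converse needs 4 lines of large spread there. The spots meeting each rule among all tested spots, called or not, were not counted, so the classes are a description. The remaining 5251 had means on either side of control with smaller sizes or uneven lines. Of the 3612 spots at which both sides moved the same way, 653 were still called after scaling. Of the 2878 spots with Snail1 and Zeb1 near control, 2333 were, and of the 429 with opposite movement, 429 were. Scaling multiplied the Snail1 and Zeb1 columns by 1.42 to 1.97 and the columns of the 4 lines by 0.64 to 0.86. These counts thus follow largely from how the classes were defined and do not test them.

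The differences were larger in the line channel than in the control channel. For the files that equal columns, the processed signals of each channel were taken apart, a step chosen after seeing the data, on log2 values centred per array. At spots called higher, the Cy5 signal of the 3 Zeb1 arrays exceeded that of the 11 arrays of the 4 lines by a median of 1.74, and the Cy3 control signal differed by -0.14. At spots called lower the median differences were -2.08 in Cy5 and -0.45 in Cy3. Over all tested spots, the median was 0.03 in Cy5 and -0.21 in Cy3, and the standard deviation of the difference was 1.62 in Cy5 against 0.681 in Cy3. The Cy5 difference was the larger in size at 11656 of the called spots (93.7%) and at 79.2% of all tested spots. Since spots were called on the ratio of the channels, these shares are a description. The control channel moved as well: at spots called lower, the Cy3 signal was lower on the Zeb1 arrays at 77.2%, against 61.1% of all tested spots. No Snail1 column equals a file, so its channels could not be taken apart. Many differences are bounds rather than folds: at 2063 of the 6418 spots called higher (32.1%) the Cy5 signal was not well above background on any array of at least 1 of the 4 lines, and at 1120 of the 6020 called lower (18.6%) on any Zeb1 array. The first measure held at 941 spots called lower (15.6%), and the second at 123 called higher (1.92%). The first takes any of 4 lines and the second Zeb1 alone, and their shares over all tested spots were not taken. Spots described singly below were therefore taken from the 5326 called spots that were well above background and unsaturated in both channels on all 21 files, of which there were 12417 among tested spots, with 42.9% of them called.

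The highest differences of these spots belonged to transcripts lowered in the 4 lines. They are given by the lowest, median and highest log2 ratio of the 6 Snail1 and Zeb1 columns and of the other 12. Spot A_11_P0000014368 (row 98, column 74 of the grid) had -1.81, 0.18 and 0.54 in Snail1 and Zeb1, and -7.41, -6.31 and -1.06 in the other 4 lines. The columns overlapped here because the second Zeb1 column lay at -1.81 and the first Twist1 column at -1.06. The difference of 5.87 (SE 0.61, limma adjusted p = 5.37e-07) is 58.4-fold. Spot A_11_P0000015672 (row 499, column 82) had -0.29, -0.13 and 0.26 against -6.50, -5.35 and -1.42, a difference of 5.04 (SE 0.42, limma adjusted p = 5.37e-08). The sides did not overlap, and the highest of the 12 was again the first Twist1 column. Spot A_11_P0000028955 (row 248, column 40) had -0.52, -0.18 and 0.27 against -6.20, -4.93 and -3.09, a difference of 4.80 (SE 0.20, limma adjusted p = 8.22e-11). Each of the 12 columns of the 4 lines was thus more than 8-fold below control, and the 6 of Snail1 and Zeb1 were within 2-fold of it. At spot A_11_P0000019320 (row 206, column 40) the values were -0.28, 0.32 and 1.25 against -5.77, -4.69 and -1.57, and the difference was 4.76 (SE 0.30).

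The largest negative differences were transcripts raised in the 4 lines. Spot A_11_P000005937 (row 408, column 15) had -0.12, 0.34 and 0.51 in Snail1 and Zeb1 and 2.99, 4.16 and 4.91 in the other 4 lines, a difference of -3.80 (SE 0.20, limma adjusted p = 6.38e-10). Spot A_11_P0000034616 (row 157, column 46) had -0.21, 0.07 and 0.41 against 1.80, 4.12 and 4.83, with a difference of -3.67 (SE 0.23). Spot A_11_P0000028263 (row 514, column 31) had -0.70, 0.08 and 0.46 against 2.52, 3.66 and 4.33, with -3.49 (SE 0.17). At these 3 spots the Snail1 and Zeb1 columns lay around control and all 12 others were at least 3-fold above it. Spot A_11_P0000027969 (row 37, column 47) differed in that all 6 columns lay a little below control, from -0.84 to -0.36, while the other 12 were at 2.36 to 3.67. Its difference was -3.53 (SE 0.17).

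Some spots moved in opposite directions. Spot A_11_P0000030962 (row 477, column 31) had the most negative difference of all named spots, -4.05 (SE 0.12, limma adjusted p = 1.07e-11). It lay at -1.34, -1.10 and -0.61 in Snail1 and Zeb1 and at 2.31, 2.92 and 3.92 in the other 4 lines, so every column of the first side was below control and every column of the second above it. Spot A_11_P0000030981 (row 89, column 45) behaved likewise, with -1.64, -1.36 and -0.82 against 1.43, 2.12 and 2.57 and a difference of -3.41 (SE 0.13). At spot A_11_P0000023790 (row 136, column 82) the values were -0.66, -0.52 and -0.40 against 1.73, 2.66 and 4.05, with a difference of -3.38 (SE 0.24).

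In the other direction, spot A_11_P00000764 (row 259, column 33) was raised in Snail1 and Zeb1, at 1.28, 2.03 and 2.41, and lowered in the 4 lines, at -2.99, -1.38 and -0.82. The difference was 3.70 (SE 0.24, limma adjusted p = 4.32e-09). Spot A_11_P000005771 (row 231, column 43) had 0.42, 1.23 and 1.91 against -4.60, -3.36 and -0.32, with a difference of 4.25 (SE 0.19). Spot A_11_P0000034898 (row 189, column 54) had 0.36, 0.83 and 1.34 against -4.15, -2.44 and -0.50, with 3.40 (SE 0.32). At both, the first Twist1 column was the one nearest to control among the 12.

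Spots changed in Snail1 and Zeb1 with the 4 lines near control were few under the rule above. Their median difference was 1.47 for the 9 called higher and -1.49 for the 14 called lower, against a median size of 1.59 over all called spots. Of the 23, 13 passed the signal rule, 3 higher and 10 lower. Where the 4 lines moved alone, the named spots came from 688 and 708 such spots, so sizes of named spots are not compared between classes. Spot A_11_P0000020348 (row 397, column 73) was the most even, with 1.19, 1.33 and 1.41 in Snail1 and Zeb1 and -0.66, -0.25 and 0.03 in the other 4 lines. Its difference was 1.60 (SE 0.10, limma adjusted p = 2.91e-09), or 3.03-fold. Spot A_11_P0000038974 (row 334, column 77) had 1.30, 1.47 and 1.78 against -0.85, -0.17 and 0.15, with 1.68 (SE 0.12). Spot A_11_P0000038971 (row 176, column 40), with a difference of 1.16 (SE 0.15), was the third of the 3 that were raised, and its sides overlapped because the second Zeb1 column lay at 0.41.

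On the lowered side, spot A_11_P0000032704 (row 522, column 35) had -2.21, -1.99 and -1.47 in Snail1 and Zeb1 and -0.47, 0.05 and 0.69 in the other 4 lines, a difference of -1.87 (SE 0.13, limma adjusted p = 6.32e-09). Spot A_11_P0000010775 (row 151, column 15) had -2.07, -1.64 and -1.21 against -0.87, 0.29 and 0.67, with -1.75 (SE 0.20). Spot A_11_P0000026926 (row 110, column 66) had -1.89, -1.55 and -1.26 against -0.34, 0.06 and 0.56, with -1.65 (SE 0.11). The sides did not overlap at any of these 3. Snail1 and Zeb1 were not called as different from each other at any of the 20 named spots.

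**Figure D5:**
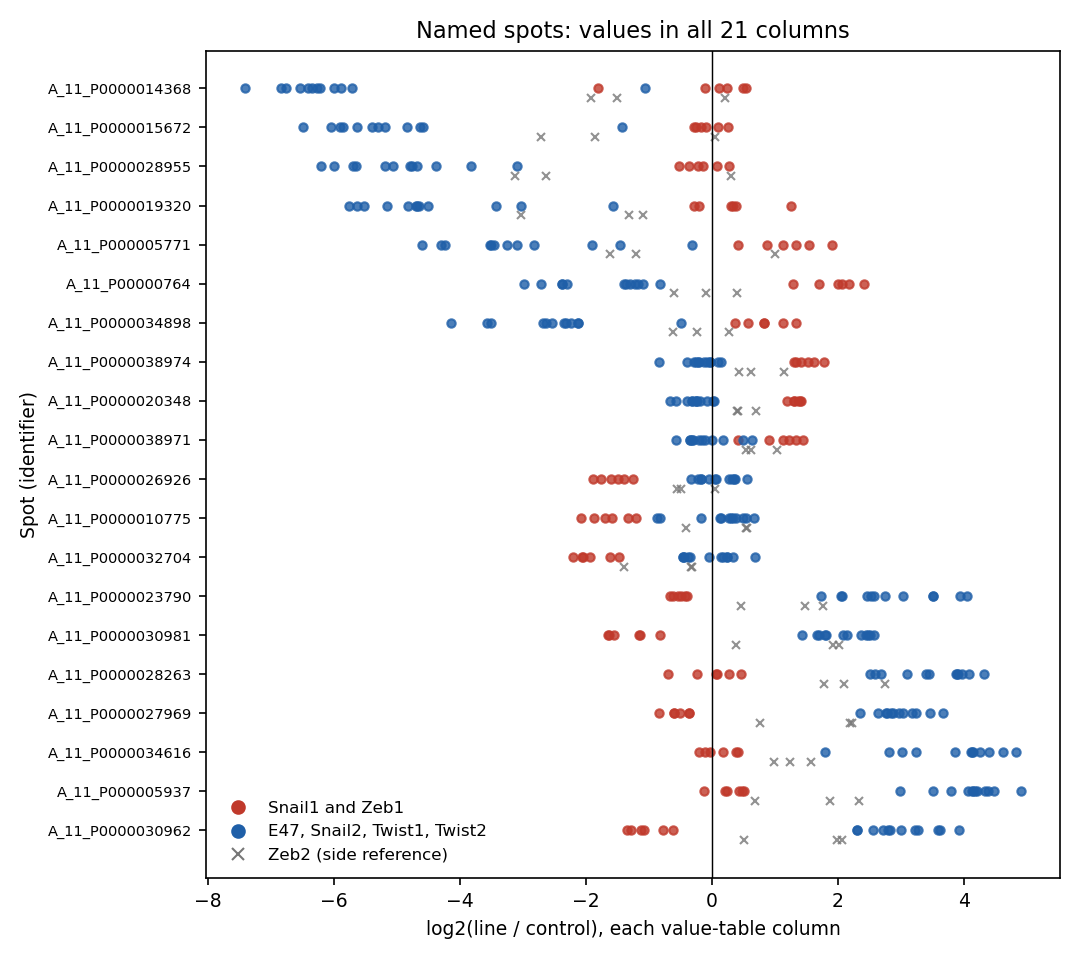
Log2 ratio to control (horizontal axis) of the 20 named spots (vertical axis, by identifier, ordered by the difference between sides) in every value-table column: red points for the 6 Snail1 and Zeb1 columns, blue for the 12 columns of the other 4 lines, grey crosses for the 3 Zeb2 columns. The middle rows hold the 6 spots at which Snail1 and Zeb1 left control and the 4 lines did not, and the rows above and below hold differences of 3.40 to 5.87 and of -4.05 to -3.38.

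The Zeb2 columns, which took no part in the contrast, differed among themselves. Over the 12438 called spots, the first Zeb2 column was nearer to the mean of Snail1 and Zeb1 than to that of the other 4 lines at 77.3%, while the second was so at 34.5% and the third at 27.6%. At the spots called higher the medians of the 3 Zeb2 columns were -0.34, -1.13 and -1.37, and at those called lower 0.36, 1.06 and 1.15. The first column thus lay between the sides in both sets, and the other two at the edge of the range of the 4 lines or inside it. The first Zeb2 column equals a file of the slide that holds the 3 Zeb1 columns, and that file was recorded for Zeb1, while 1 of the Zeb1 columns equals a file recorded for Zeb2. The other two equal no file. The part of the slide in the likeness of the first Zeb2 column to Zeb1 was not tested. In a fit over all 21 columns, Zeb2 differed from Snail1 and Zeb1 at 6941 spots (23%) and from the other 4 lines at 5033 (16.7%).

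With the samples recorded for the scanner files in place of the column names, fewer spots were called. The count also depended on the normalisation. With normexp background correction and loess, which changed labels and normalisation together, 1783 spots (5.91%) separated Snail1 and Zeb1 from the other 4 lines, 916 higher and 867 lower. Of these, 1647 had a call of 1 sign in both sources, which is 92.4% of the recorded calls and 13.2% of the value-table calls, and 7 with the opposite sign. The arrays of the 4 lines are largely the same measurements in both sources, and 2 of the 3 Zeb1 columns equal files recorded for Zeb1, so this overlap is not independent evidence. With the scanner software's own ratios, 6021 spots were called under the recorded samples. Of these, 5404 had a call of the same sign in the value table and 22 of the opposite sign. With the slide as a random block, 24 spots were called and 6113 had an unadjusted limma p under 0.05. No slide held recorded arrays of both sides, so side and slide cannot be told apart there either. Of the 20 named spots, 9 were called in the recorded arrays with normexp and loess. With the scanner software's own ratios, 7 of the 20 were not called. With the slide block 0 were called, with limma adjusted p-values of 0.0866 to 0.836. With normexp and loess all 20 had the same sign as in the value table. At spot A_11_P0000032704, however, the recorded difference was -0.05 (limma adjusted p = 0.838) and at spot A_11_P0000010775 -0.37 (limma adjusted p = 0.348), so the sign carries little there.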

How the data were processed

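Per the file headers, scanner files are output of Agilent Feature Extraction 10.7.1.1 (10.0 per the submitters' processing notes). They hold the intensity of each spot and its local background as median pixel brightness, processed signals that the scanner software had background-subtracted and dye-normalised, and a deposited log10 ratio of processed Cy5 over Cy3. The deposited value table also holds log10 ratios. Every column has median 0, while other steps behind these columns are not stated in any source used. Columns were taken by sample name and multiplied to log2. In the first column that equals a file, 924 spots held another value, and all of them share a transcript name with another spot.

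One mean per line was fitted with limma 3.58.1 in R 4.3.3 (lmFit, eBayes) over 18 columns. Recorded arrays were corrected by normexp (offset 50) on median signals and normalised by loess, with 1417 control spots at weight 0 and outlier spots removed. The contrast code was tested on simulated data. Named spots were, among called spots clear of background and unsaturated on all files, the 4 highest and 4 lowest differences, and 3 each way with Snail1 and Zeb1 moved alone (both at least 1 from 0, the 4 lines within 0.5), the 4 lines moved alone, or opposite movement (at least 0.5 each way). The members and lists were chosen with earlier results of these data known. The number of arrays limits precision. Alternatives are in the closing section.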

Additional observations from a re-analysis of the deposited data

Results flagged for a closer look

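Snail1 and Zeb1, taken as 1 side, differed from each other at 1321 spots by limma (adjusted p under 0.05, absolute log2 difference of at least 1), 679 higher and 642 lower in Snail1, so their differences from the other 4 lines were not alike there. Of the 12438 spots called between the sides, 609 were among them.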

How the results depend on the processing

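Of the 12438 spots called between the sides, 8332 kept call and sign after scaling and 9219 after quantile normalisation, so a similar count need not be the same spots. The count of spots called between the sides stayed within 1.5 times of 12438 under the filters on dim spots, removal of shared transcript names, both normalisations between columns, array weights, the trended variance, the fit with Zeb2, line means and each line left out. Without single columns it ran from 12157 to 12652, the calls in all 8 pairs from 4136 to 4713, the median across pairs from 12640.5 to 13602.5, the median within the 4 lines from 2767.5 to 4493, Snail1 against Zeb1 from 1016 to 1625, and the difference in spread from -0.73 to -0.69. The recorded arrays were weaker throughout: with normexp and loess they gave 1783 calls (916 higher, 867 lower), 1 in all 8 pairs, medians of 35.5 across and 0 within the 4 lines, 1 between Snail1 and Zeb1 and a spread difference of -0.41. The scanner's own ratios gave 6021 (3280 higher, 2741 lower), 48, 1057.5, 0 and 411 in that order. With slide as a random block, at a consensus correlation of 0.283, the values were 24 (3 higher, 21 lower), 0, 1, 0 and 0. Beside these counts of 0, limma's unadjusted p was under 0.05 at a median of 580, 995.5 and 153.5 spots within the 4 lines, and with the slide block at 735 spots between Snail1 and Zeb1 and at 156 in all 8 pairs. The cause was not tested. Scaling reversed the difference in spread to 0.35, quantile normalisation left it at -0.086, steps that equalise spread by construction, and they changed the within-side medians to 632.5 and 1042.5 and Snail1 against Zeb1 to 5422 and 4827. Without a fold threshold the counts were 20914 (10891 higher, 10023 lower), 7094 in all 8 pairs and a median of 5494 within the 4 lines. At 4-fold they were 3640 (2065, 1575), 1005, 5146.5 across, 732.5 within and 524 between Snail1 and Zeb1. Without Twist1, 7149 spots were called in all pairs. Zeb1 alone against the 4 lines over 14 equal columns gave 12999 calls, an alternative chosen after seeing the data. With slide as a random block it gave 13292, at a consensus correlation of -0.158, but as 0 slides held both sides this says nothing about the slide. Replicate numbers did not pair samples: same-numbered columns deviated together with a mean r of 0.0055, 7 of 45 pairs exceeded 0.1, and 8 of 18 columns were nearest their own number. The replicate block gave 12441 calls.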

Other observations

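Over 4 equal bands of the grid's rows, 20.4% to 22% of tested spots were called higher and 19.3% to 20.4% lower in Snail1 and Zeb1. By 4 equal bins of mean brightness, from dim to bright, 31.4%, 43%, 48.3% and 42.2% of spots were called in either direction.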
